A study of Mus musculus with 8 samples.

Results

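The genes described here are 10 amino acid transporters of the plasma membrane, Slc7a5, Slc3a2, Slc7a11, Slc7a1, Slc38a1, Slc38a2, Slc1a4, Slc1a5, Slc6a9 and Slc43a1. They were chosen by gene name, and all 10 were found among the 56748 genes of the deposited expression table. RNA had been sequenced from 32D cells, a mouse myeloid line whose growth depends on interleukin-3. Every group carried a transduced murine Jak2, either Jak2WT or Jak2V617F, the activated kinase found in myeloproliferative neoplasms. In each Jak2 background, GLUT1/3 WT clones were set beside GLUT1/3 dKO clones, in which CRISPR-Cas9 had been used against Slc2a1 and Slc2a3, the genes of the glucose transporters GLUT1 and GLUT3. This gave 4 groups, Jak2WT GLUT1/3 WT, Jak2WT GLUT1/3 dKO, Jak2V617F GLUT1/3 WT and Jak2V617F GLUT1/3 dKO, each with 2 libraries, from the clones labelled 1 and 3. For the last 24 h before RNA isolation all cells had been in a low-supplement medium, in which glucose was at 5 mM, glutamine at 1 mM and interleukin-3 at 2 ng/ml. Each library is a clone of 1 line carrying an introduced Jak2. The spread between clones stands for clonal variation within this line and not for separate donors or animals. No repeat of the Jak2 transduction is described, so this spread does not cover differences between separately transduced cells. The paper calls its clones independent and lists the same Slc2a1 deletion size for all dKO clones of a background. Whether these share an edited founder cell is not given.

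Amino acid transporters set how much of each amino acid a cell can take up, and several of them trade one amino acid for another. The heavy chain CD98, encoded by Slc3a2, pairs with light chains that do the transport, among them LAT1 (Slc7a5), which brings in leucine and other large neutral amino acids, and xCT (Slc7a11), which imports cystine in exchange for glutamate. Leucine and arginine inside the cell are sensed by the kinase complex mTORC1 at the lysosome, and many transporter genes are known targets of ATF4, a transcription factor made in larger amounts when amino acids run short.

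Reads on genes, recovered from the deposited values, ranged from 16846011 to 48884329 per library. Levels are given as FPKM, fragments counted on a gene relative to its length in kilobases and to the library total, and a difference between groups as a log2 fold change of FPKM + 1 with its standard error (SE) and an adjusted p-value from limma. Slc2a1 lay at 9.17 to 17.3 FPKM in the 4 dKO libraries and at 44.7 to 64.0 in the 4 GLUT1/3 WT libraries, and Slc2a3 at 16.0 to 49.5 against 91.9 to 198. Jak2 lay at 218 to 258 FPKM in the Jak2WT libraries and at 139 to 165 in the Jak2V617F libraries, where reads of the introduced and the endogenous gene cannot be told apart. The label of a myeloblast-like line was only partly borne out by 10 markers fixed for it: Csf2rb, Ptprc, Spi1, Il3ra and Prtn3 were expressed, whereas Mpo, Elane, Ctsg, Cd34 and Kit stayed under 1 FPKM in every library. Csf2rb was the largest part of the summed FPKM of these markers in every library. The summed FPKM of 13 erythroid markers was 279 to 294 in Jak2WT GLUT1/3 WT, 427 to 453 in Jak2WT GLUT1/3 dKO, 650 to 1017 in Jak2V617F GLUT1/3 WT and 2747 to 4996 in Jak2V617F GLUT1/3 dKO. Its largest part was Tfrc, the transferrin receptor, in Jak2WT GLUT1/3 WT and globin RNA in Jak2V617F, whereas Alas2 and Slc4a1 stayed under 1 FPKM throughout. Of the erythroid genes counted as called, Hba-a2 passed the filter only through the Jak2V617F GLUT1/3 dKO clones, at 13.8 and 3.75 FPKM, so its calls in the comparisons with those clones are no support for a difference. Of 9 mast cell and basophil markers only Gata2 and Cpa3, and of 9 lymphoid and stromal markers only Pecam1, passed the expression filter, and Cpa3 was at 50.8 to 101 FPKM in the Jak2WT libraries and at most 1.67 in the Jak2V617F libraries.

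All 10 transporter genes passed the expression filter, and each was above 0 in every library. Their FPKM summed to between 289 and 301 in Jak2WT GLUT1/3 WT clones, 359 and 364 in Jak2WT GLUT1/3 dKO, 465 and 500 in Jak2V617F GLUT1/3 WT and 294 and 307 in Jak2V617F GLUT1/3 dKO. The Jak2V617F GLUT1/3 WT libraries therefore lay above all others, and the ranges of Jak2V617F GLUT1/3 dKO and Jak2WT GLUT1/3 WT overlapped. Slc3a2 and Slc7a5 together made up 46.6% to 59.1% of this sum. FPKM is scaled to gene length, so levels can be set in order. In every group Slc3a2 was highest, followed by Slc7a5 and Slc38a2. The order below them changed with the group: Slc43a1 was in place 8 of 10 in Jak2WT GLUT1/3 WT and in place 6 in Jak2V617F GLUT1/3 dKO, where Slc7a11 was last. Neighbours in the order whose clones overlapped were Slc43a1 and Slc7a11 in Jak2WT GLUT1/3 WT, Slc1a5 and Slc7a1 in Jak2WT GLUT1/3 dKO, and Slc7a11, Slc43a1 and Slc6a9 in Jak2V617F GLUT1/3 WT, and these neighbours did not differ beyond their spread.

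**Figure D1:**
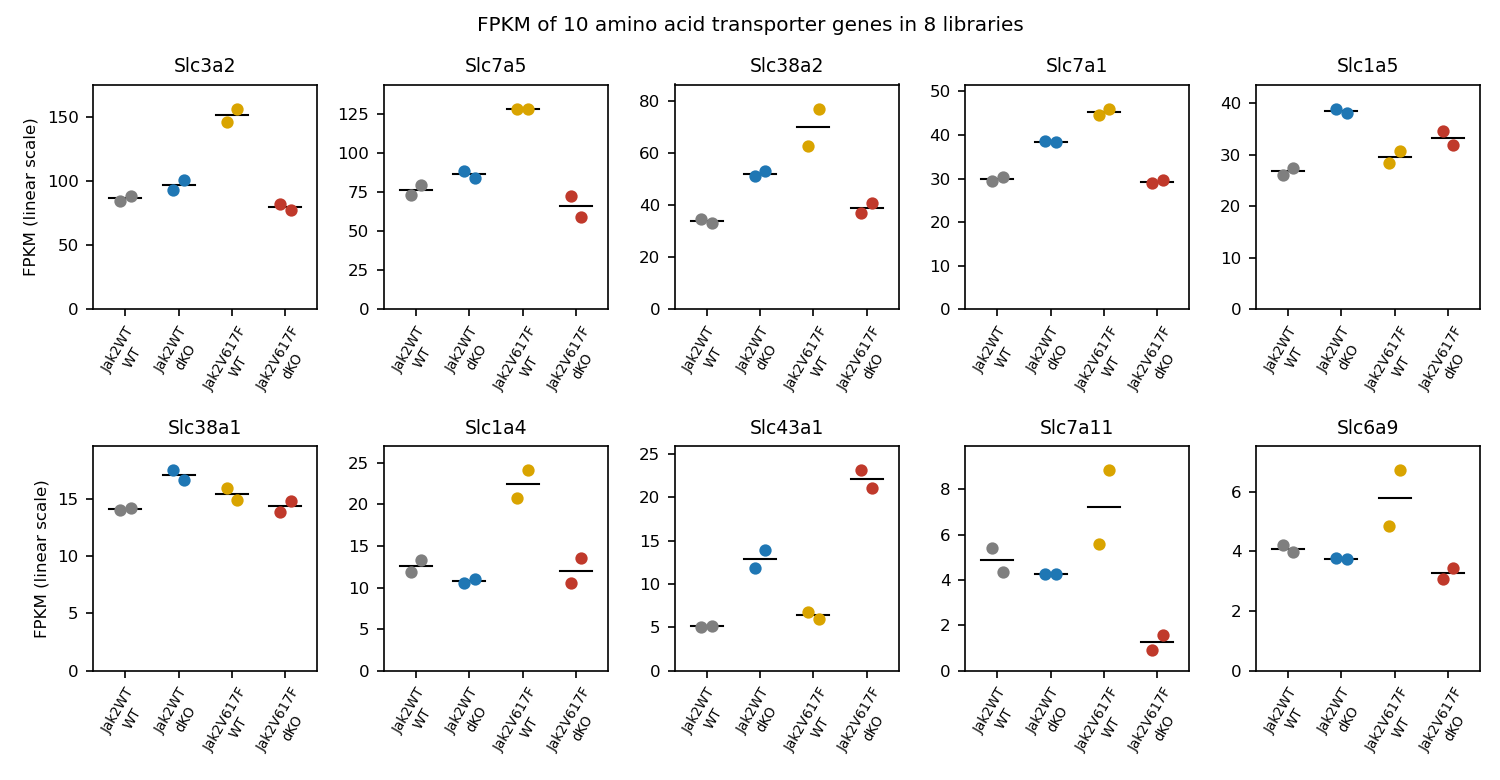
FPKM (linear axis from 0) of each transporter gene in the 8 libraries, with 1 point per clone, colours for the 4 groups and a line at the group mean (n = 2). Slc3a2, Slc7a5, Slc38a2, Slc7a1 and Slc1a4 were highest in both Jak2V617F GLUT1/3 WT clones, Slc43a1 was highest in both Jak2V617F GLUT1/3 dKO clones at 21.1 and 23.1 FPKM, and Slc7a11 was lowest there at 0.936 and 1.58 FPKM.

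Slc3a2 (ENSMUSG00000010095, GRCm39 chromosome 19, 8684246 to 8700733, reverse strand), the CD98 heavy chain, measured 84.9 and 88.7 FPKM in the Jak2WT GLUT1/3 WT clones, 93.3 and 101 in Jak2WT GLUT1/3 dKO, 147 and 157 in Jak2V617F GLUT1/3 WT, and 82.0 and 77.5 in Jak2V617F GLUT1/3 dKO. Slc7a5 (ENSMUSG00000040010, chromosome 8, 122607889 to 122634433, reverse strand), the LAT1 light chain, measured 73.6 and 79.9, then 89.0 and 84.4, then 128 and 129, and 72.9 and 59.4 FPKM in the same order of groups. Both subunits of this exchanger were thus highest in Jak2V617F GLUT1/3 WT and lowest in Jak2V617F GLUT1/3 dKO, and for both the other 2 groups lay between. The ratio of Slc7a5 to Slc3a2 within a library stayed between 0.767 and 0.954, and its ranges overlapped in all 4 groups. Slc7a11 (ENSMUSG00000027737, chromosome 3, 49846975 to 50398063, reverse strand), the cystine carrier xCT, was far less abundant, at 5.41 and 4.34, then 4.29 and 4.27, then 5.61 and 8.85, and 0.936 and 1.58 FPKM. Its lowest value rests on 453 reads. Its ratio to Slc3a2 was 0.0382 to 0.0637 in the other 3 groups and 0.0114 to 0.0204 in Jak2V617F GLUT1/3 dKO, with no overlap. No overlapping gene reached 1 FPKM on the 551 kb listed for Slc7a11.

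**Figure D2:**
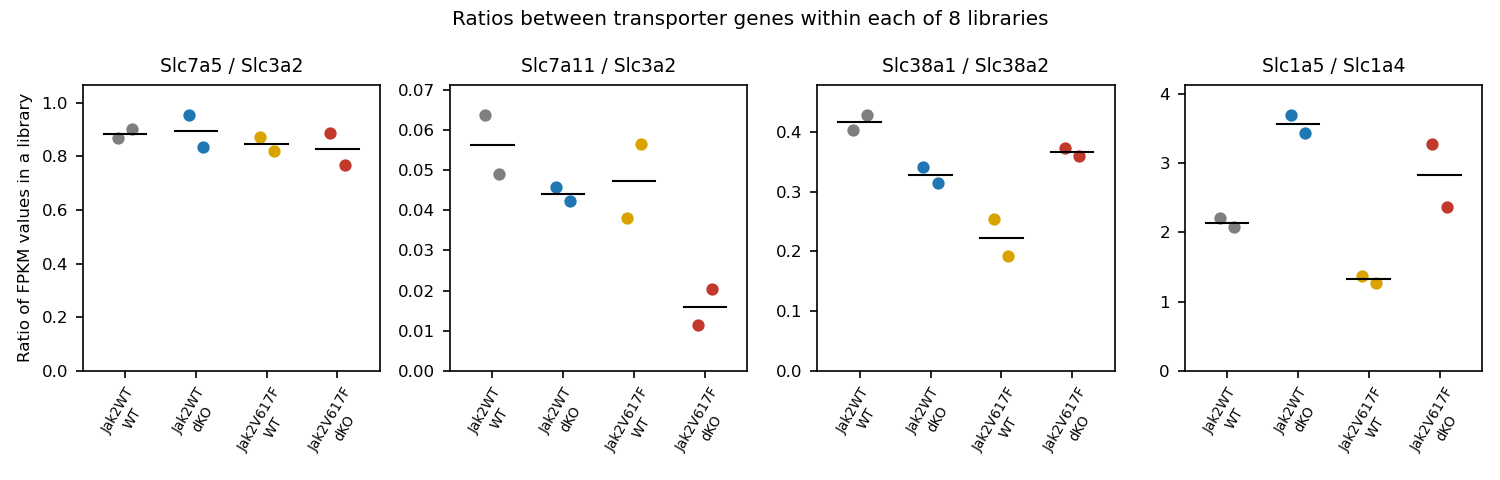
Ratio of FPKM values of a pair of transporter genes within each library (linear axis from 0), with 1 point per clone and a line at the group mean (n = 2). Slc7a5 to Slc3a2 overlapped between all groups, whereas Slc7a11 to Slc3a2 was lowest in Jak2V617F GLUT1/3 dKO and both Slc38a1 to Slc38a2 (0.192 to 0.254) and Slc1a5 to Slc1a4 (1.27 to 1.37) were lowest in Jak2V617F GLUT1/3 WT.

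Windows from 250 bases before to 50 bases after the annotated start of each gene were searched on both strands for TGATGNAA, the composite element bound by ATF4 with C/EBP proteins and shown here because ATF4 response genes are described beside the transporters. In GRCm39 with the canonical starts of GENCODE, 2.69% of 11777 windows of tested genes held it, and 2 of the 10 transporter windows did, those of Slc7a11 and Slc38a1. In the RefSeq windows of the same length (GRCm38.p6), 2.23% of 10329 windows held it, and of 7 transporter genes with a window it was present for Slc7a11 and Slc1a4. Of the 7 genes with a window in both sets, Slc7a11 alone held a match in both. The stretches before the start that hold the element in GRCm39 follow in the 5′ to 3′ direction of the gene, with matches on either strand in capitals.
Slc7a11, chr3:50398076-50398154, reverse strand: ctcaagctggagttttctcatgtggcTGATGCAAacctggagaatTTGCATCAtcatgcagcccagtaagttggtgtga
Slc38a1, chr15:96540316-96540345, reverse strand: tggggggaaacTGATGCAAccagccctggg
The Slc7a11 stretch holds the element in both orientations, at -65 to -58 and at -46 to -39 from the start, and the second overlaps a match of TGANNNNGC. The Slc38a1 stretch lies before the canonical start but overlaps an annotated exon, inside the span listed for the gene. In Jak2V617F dKO cells Slc7a11 had the largest fall of the 10 genes, and Slc1a4, matched in RefSeq alone, was called lower too. Slc38a1, matched in the GENCODE window, had no change past the threshold in any comparison. Whether the element has a part in these levels was not tested. Of the other motifs searched, CACGTG, the E-box bound by Myc and MondoA, was in 9.62% of the GENCODE windows and in that of Slc7a5, TGANNNNGC, the antioxidant element bound by NRF2, was in 41.7% and in 5 transporter windows, and the HIF core motifs ACGTG, which is also part of CACGTG, and GCGTG were in 25.1% and 46.3% and in 2 and 5 transporter windows. In the RefSeq windows CACGTG was in 10.3% and in that of Slc43a1, TGANNNNGC in 42.9% and in 6 of the 7 transporter windows, ACGTG in 26.7% and in 2, and GCGTG in 51% and in 4. A match is a description of the letters and not a measured site.

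Slc38a2 (ENSMUSG00000022462, chromosome 15, 96585273 to 96597611, reverse strand) encodes SNAT2, a sodium-coupled carrier of glutamine and other small neutral amino acids. It measured 34.7 and 33.2 FPKM in Jak2WT GLUT1/3 WT clones, 51.1 and 53.0 in Jak2WT GLUT1/3 dKO, 62.8 and 77.2 in Jak2V617F GLUT1/3 WT and 37.2 and 41.1 in Jak2V617F GLUT1/3 dKO. No clone of a group overlapped those of another. Slc38a1 (ENSMUSG00000023169, chromosome 15, 96469299 to 96540794, reverse strand), which encodes the related SNAT1, lies on the same strand of chromosome 15 and varied far less, from 13.9 FPKM in a Jak2V617F GLUT1/3 dKO clone to 17.5 in a Jak2WT GLUT1/3 dKO clone. An antisense RNA overlapping Slc38a1 reached 0.796 to 1.62 FPKM, and since the strand setting of the counting is not given, reads from the shared stretch cannot be assigned to either gene.

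Slc1a5 (ENSMUSG00000001918, chromosome 7, 16515265 to 16532199, forward strand) encodes ASCT2, an exchanger of glutamine. It lay at 26.2 and 27.5 FPKM in Jak2WT GLUT1/3 WT and at 38.1 and 39.0 in Jak2WT GLUT1/3 dKO, with 28.5 and 30.7 in Jak2V617F GLUT1/3 WT and 32.0 and 34.6 in Jak2V617F GLUT1/3 dKO. Both dKO groups were above both GLUT1/3 WT groups. Slc1a4 (ENSMUSG00000020142, chromosome 11, 20252180 to 20282713, reverse strand) encodes the paralogue ASCT1, which exchanges serine, alanine and threonine. Its 2 Jak2V617F GLUT1/3 WT clones, at 20.8 and 24.1 FPKM, stood above the other 6 libraries, which ranged from 10.5 to 13.5.

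Slc7a1 (ENSMUSG00000041313, chromosome 5, 148264220 to 148336714, reverse strand) encodes CAT1, the main carrier of arginine and lysine in many cells. It measured 29.3 and 30.3 FPKM in Jak2WT GLUT1/3 WT clones, 38.7 and 38.3 in Jak2WT GLUT1/3 dKO, 44.6 and 46.1 in Jak2V617F GLUT1/3 WT and 29.0 and 29.6 in Jak2V617F GLUT1/3 dKO. The clones of a group lay close together, and the groups of Jak2V617F GLUT1/3 dKO and Jak2WT GLUT1/3 WT overlapped. Slc6a9 (ENSMUSG00000028542, chromosome 4, 117691703 to 117732395, forward strand) encodes the glycine transporter GLYT1 and ranged from 3.08 FPKM in Jak2V617F GLUT1/3 dKO to 6.73 in Jak2V617F GLUT1/3 WT. Slc43a1 (ENSMUSG00000027075, chromosome 2, 84669194 to 84693938, forward strand) encodes LAT3, a facilitative carrier of leucine and other large neutral amino acids that needs no CD98 heavy chain. It measured 5.10 and 5.19 FPKM in Jak2WT GLUT1/3 WT clones, 11.9 and 14.0 in Jak2WT GLUT1/3 dKO, 6.82 and 5.95 in Jak2V617F GLUT1/3 WT and 23.1 and 21.1 in Jak2V617F GLUT1/3 dKO. Slc43a1 was therefore higher in all 4 dKO libraries than in the 4 GLUT1/3 WT libraries, with no overlap between any groups.

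The comparison of dKO with GLUT1/3 WT clones in Jak2WT cells asks which transporter genes differ where glucose uptake was removed without the oncogenic kinase. Slc43a1 rose 2.52-fold in group means (log2 fold change 1.18, SE 0.11, adjusted p = 0.00238, limma), and the glutamine carriers Slc38a2 (0.60, SE 0.11, adjusted p = 0.0165) and Slc1a5 (0.51, SE 0.08, adjusted p = 0.0113) and the arginine carrier Slc7a1 (0.36, SE 0.07, adjusted p = 0.0196) rose as well. In all, 4 of 10 transporter genes were called higher and 0 lower, where 13.7% of all 11818 genes tested were called, 7.62% higher and 6.06% lower. At an unadjusted p under 0.05 the count was 5, Slc38a1 (0.26, adjusted p = 0.0695) being the other gene. Slc7a5 (0.17, 95% interval -0.08 to 0.43) and Slc3a2 (0.16, -0.03 to 0.35) missed the threshold, as did Slc7a11, Slc1a4 and Slc6a9, whose values were between -0.20 and -0.10. The median of the 10 genes was 0.22, beside 0.01 over all genes tested. Leaving out any of the 4 Jak2WT libraries left Slc43a1 as the single call, in fits that called 110 to 281 of all genes tested in place of 1617. Without Jak2WT GLUT1/3 WT clone 1, clone 3, Jak2WT GLUT1/3 dKO clone 1 and clone 3 the adjusted p of Slc7a1 was 0.143, 0.106, 0.111 and 0.0912. That of Slc38a2 was 0.0919, 0.103, 0.0837 and 0.0865, and that of Slc1a5 was 0.0933, 0.0683, 0.0774 and 0.0619. The summed erythroid markers differed in the same comparison (279 to 294 against 427 to 453 FPKM), with 2 of 10 tested called higher and 0 lower, and the summed myeloblast markers were 219 to 248 against 160 to 197, with 1 of 5 called lower. Their part in the result was not tested.

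In Jak2V617F cells most of the transporter genes fell in the same comparison. Slc7a11 fell to 0.174 of its level in group means (log2 fold change -1.85, SE 0.21, adjusted p = 0.00137, limma), a value that the added 1 FPKM makes smaller for so low a gene. Slc7a5 (-0.95, SE 0.11, adjusted p = 0.0013) and Slc3a2 (-0.92, SE 0.08, adjusted p = 0.000583) fell to 0.515 and 0.525 of their levels, and Slc1a4 (-0.85, SE 0.13, adjusted p = 0.00362), Slc38a2 (-0.82, SE 0.11, adjusted p = 0.00233), Slc6a9 (-0.66, SE 0.14, adjusted p = 0.0117) and Slc7a1 (-0.61, SE 0.07, adjusted p = 0.00133) fell too. Slc43a1 rose 3.46-fold (1.65, SE 0.11, adjusted p = 0.000359). Thus 7 of 10 transporter genes were called lower and 1 higher, where 29.9% of all genes tested were called, 16.2% lower and 13.7% higher. The median of the 10 genes was -0.74, beside -0.02 over all genes tested.

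The exceptions in Jak2V617F cells were Slc38a1 (-0.10, 95% interval -0.28 to 0.09) and Slc1a5 (0.16, -0.03 to 0.35), so of the glutamine carriers only Slc38a2 passed the threshold. Slc6a9 lost its call without Jak2V617F GLUT1/3 dKO clone 1 (adjusted p = 0.0504) and in a fit of only the 2 groups compared (0.0659), whereas the other 7 calls held under all 16 alternatives. The summed erythroid markers were 650 to 1017 FPKM in the GLUT1/3 WT clones and 2747 to 4996 in the dKO clones, with 7 of 10 tested, Hba-a2 among them, called higher and 1 lower, and the summed myeloblast markers were 196 to 201 against 89.1 to 92.0, with 3 of 5 called lower. Their part in the transporter results was not tested. These are bulk libraries, in which fewer cells of a type and less RNA per cell cannot be told apart.

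**Figure D3:**
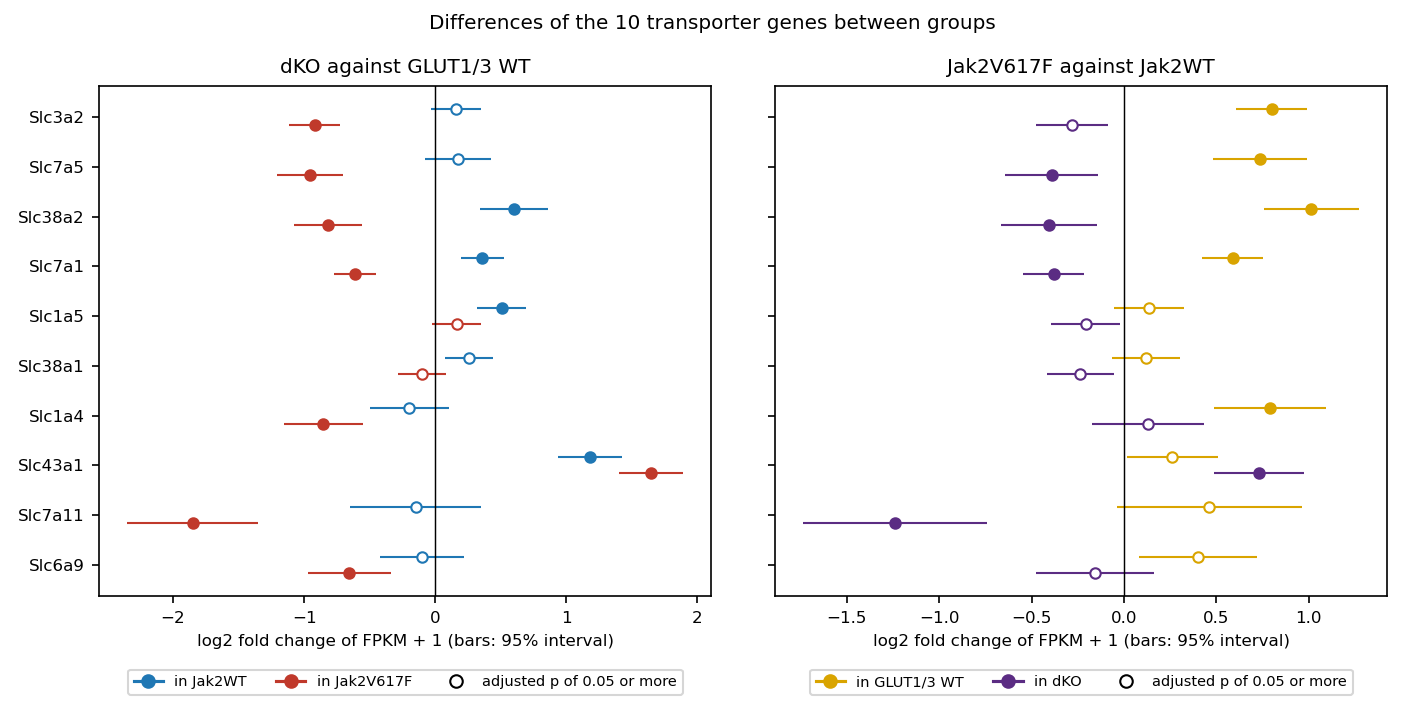
Log2 fold change of FPKM + 1 for each transporter gene (x axis) with its 95% interval from limma (bars), for dKO against GLUT1/3 WT in each Jak2 background (left) and for Jak2V617F against Jak2WT in each GLUT state (right), with filled points where the adjusted p was under 0.05. On the left, 7 genes lay below 0 with filled points in Jak2V617F and 4 above 0 in Jak2WT, and Slc43a1 was above 0 in both.

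Among GLUT1/3 WT clones, Jak2V617F was compared with Jak2WT to ask what goes with the Jak2V617F background with glucose uptake intact. The backgrounds are separately transduced cells, so the kinase cannot be told apart from other differences between them. Slc38a2 rose 2.06-fold (log2 fold change 1.02, SE 0.11, adjusted p = 0.00126, limma), and Slc3a2 (0.80, SE 0.08, adjusted p = 0.00106), Slc1a4 (0.79, SE 0.13, adjusted p = 0.00486), Slc7a5 (0.74, SE 0.11, adjusted p = 0.00324) and Slc7a1 (0.59, SE 0.07, adjusted p = 0.00166) rose 1.52-fold to 1.79-fold. With these, 5 of 10 transporter genes were called higher and 0 lower, where 30.3% of all genes tested were called, 15.3% higher and 14.9% lower. At an unadjusted p under 0.05 the count was 7, with Slc6a9 (0.40, adjusted p = 0.0623) and Slc43a1 (0.26, adjusted p = 0.0979). Slc7a11 had a difference of 0.46 and the widest interval of the 10, from -0.04 to 0.96, and its Jak2V617F clones were at 5.61 and 8.85 FPKM. The interval rests on a spread pooled over all groups. Without Jak2V617F GLUT1/3 WT clone 1 both Slc7a11 (0.75, adjusted p = 0.0467) and Slc6a9 (0.60, adjusted p = 0.0183) passed the threshold. Slc38a1 and Slc1a5, at 0.12 and 0.14, did not, and turned to -0.03 and -0.01 when libraries were scaled to the same summed FPKM.

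The 5 genes called among the GLUT1/3 WT clones were called under all 16 alternatives. The median of the 10 transporter genes was 0.53, beside 0.01 over all genes, and with libraries scaled to the same summed FPKM these medians were 0.39 and -0.12. The summed erythroid markers were 279 to 294 FPKM in Jak2WT and 650 to 1017 in Jak2V617F, with 6 of 10 called higher and 1 lower. The summed myeloblast markers were 219 to 248 against 196 to 201, with 2 of 5 called higher. Of these 5, 4 had a positive difference and 1 a negative one, Csf2rb, at 190 and 162 FPKM against 127 and 131. Cpa3 was at 78.2 and 94.8 FPKM against 0.531 and 0.554. The part of these markers was not tested. The Jak2V617F GLUT1/3 WT libraries serve both here and in the dKO comparison within Jak2V617F cells, so a high value in them enters the first upward and the second downward, and the pair of results is not independent.

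Among dKO clones, Jak2V617F was set against Jak2WT to ask what goes with the Jak2V617F background where both glucose transporter genes had been targeted. Slc7a11 was lower in Jak2V617F (log2 fold change -1.24, SE 0.21, adjusted p = 0.00945, limma), as were Slc38a2 (-0.41, SE 0.11, adjusted p = 0.0453), Slc7a5 (-0.39, SE 0.11, adjusted p = 0.0472) and Slc7a1 (-0.38, SE 0.07, adjusted p = 0.012), and Slc43a1 was higher (0.73, SE 0.11, adjusted p = 0.00489). Hence 4 of 10 transporter genes were called lower and 1 higher, where 17.1% of all genes tested were called, 9.96% lower and 7.12% higher. Slc3a2, the partner of Slc7a5, was just outside the threshold at -0.28 (adjusted p = 0.0577). Slc1a4 had a value of 0.13 and turned to -0.03 (adjusted p = 0.872) without Jak2V617F GLUT1/3 dKO clone 3.

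Of these 5 calls among dKO clones, that of Slc43a1 held under all 16 alternatives. Slc7a5 lost its call in 11 of them and Slc38a2 in 10. Without Jak2V617F GLUT1/3 dKO clone 3, Slc7a5 measured -0.25 (adjusted p = 0.137), and Slc38a2 measured -0.34 (adjusted p = 0.17) without clone 1 and -0.48 (adjusted p = 0.0594) without clone 3. Without Jak2WT GLUT1/3 dKO clone 1 the adjusted p was 0.0624 for Slc7a11, 0.0813 for Slc7a1, 0.153 for Slc38a2 and 0.212 for Slc7a5, and without clone 3 it was 0.0539, 0.0664, 0.174 and 0.126, so that Slc43a1 was the single call left in both cases. Without Jak2WT GLUT1/3 WT clone 1 or clone 3, libraries that are not part of the comparison but share its estimate of the spread, Slc7a5 (0.0797 and 0.0798) and Slc38a2 (0.0817 and 0.0819) missed the threshold, and Slc7a5 did so without Jak2V617F GLUT1/3 WT clone 1 (0.0656) or clone 3 (0.0653). The summed erythroid markers were 427 to 453 FPKM in Jak2WT dKO and 2747 to 4996 in Jak2V617F dKO, with 8 of 10, Hba-a2 among them, called higher and 0 lower. The summed myeloblast markers were 160 to 197 against 89.1 to 92.0, with 2 of 5 called lower, and Cpa3 was at 50.8 and 101 FPKM against 0 and 1.67. Their part was not tested.

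The interaction asks whether the dKO difference itself differed between the Jak2 backgrounds. It was negative for Slc7a11 (-1.70, SE 0.30, adjusted p = 0.0194, limma), Slc38a2 (-1.42, SE 0.16, adjusted p = 0.00867), Slc7a5 (-1.13, SE 0.15, adjusted p = 0.0122), Slc3a2 (-1.08, SE 0.12, adjusted p = 0.00867) and Slc7a1 (-0.97, SE 0.10, adjusted p = 0.00867), meaning a lower dKO value in Jak2V617F than in Jak2WT. Slc38a2 and Slc7a1 passed the threshold in opposite directions in the 2 backgrounds, upward in Jak2WT and downward in Jak2V617F, and of these the upward calls were lost without any 1 of the 4 Jak2WT libraries (adjusted p = 0.0837 to 0.103 for Slc38a2 and 0.0912 to 0.143 for Slc7a1). So 5 of 10 transporter genes were called lower and 0 higher, where 10.6% of all genes tested were called, 5.91% lower and 4.72% higher. The other 5 genes had unadjusted p-values under 0.05 and missed the adjusted threshold, with Slc1a4 at -0.66 (adjusted p = 0.0624), Slc6a9 at -0.56 (0.107), Slc38a1 at -0.35 (0.0819), Slc1a5 at -0.34 (0.0958) and Slc43a1 at 0.47 (0.0839). The median of the 10 genes was -0.81, beside -0.04 over all genes, and -0.63 beside 0.12 with libraries scaled to the same summed FPKM. Of the markers, 2 of 5 myeloblast genes were called lower in the interaction, and of 10 erythroid genes none was called by limma and 3 had an unadjusted p under 0.05. Their part was not tested.

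Each of the 5 interaction calls was lost in at least 1 fit that left out a library. Without Jak2WT GLUT1/3 WT clone 3 none of the 10 genes passed the threshold, with adjusted p = 0.0522 for Slc3a2 and Slc7a1, 0.0531 for Slc38a2, 0.0597 for Slc7a5 and 0.0818 for Slc7a11, while the values themselves stayed between -1.57 and -0.99. Without Jak2WT GLUT1/3 WT clone 1 the adjusted p of Slc7a5 was 0.0577 and that of Slc7a11 was 0.0629. Without Jak2WT GLUT1/3 dKO clone 1 these were 0.0601 and 0.0801, and without clone 3 that of Slc7a11 was 0.0547. Without Jak2V617F GLUT1/3 dKO clone 3, Slc1a4 passed the threshold (-0.83, adjusted p = 0.0289). Such fits leave a group with 1 library, which is then taken to vary as the others do.

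**Figure D4:**
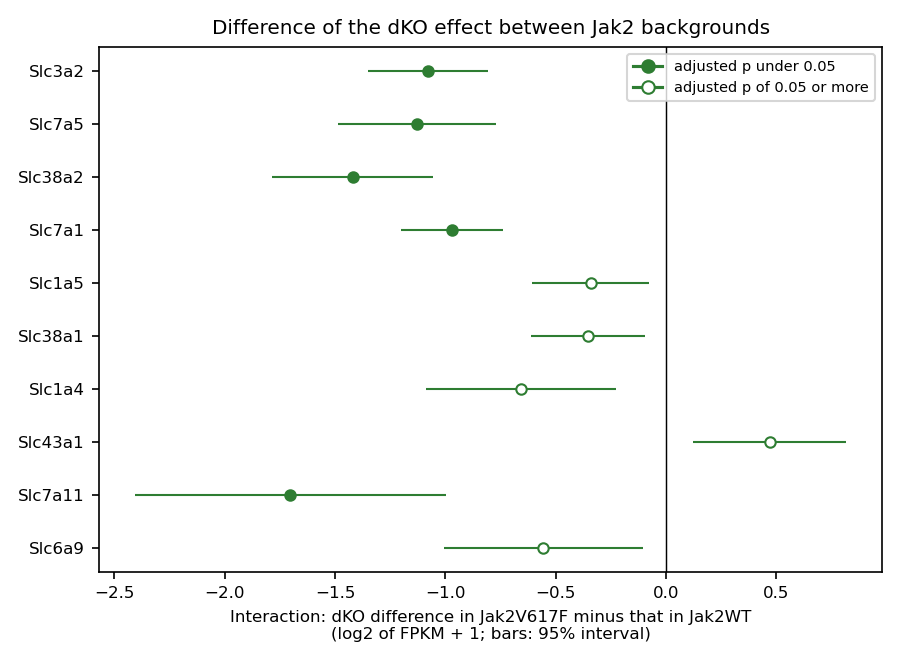
Interaction for each transporter gene, which is the log2 dKO difference in Jak2V617F minus that in Jak2WT (x axis, log2 of FPKM + 1), with its 95% interval from limma (bars) and filled points where the adjusted p was under 0.05. The 5 filled points lie between -1.70 and -0.97, and Slc43a1 alone lies above 0, with an open point at 0.47.

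The lists that follow are to be read against the shares of all genes tested that were called, which were 13.7% for dKO in Jak2WT, 29.9% for dKO in Jak2V617F, 30.3% for Jak2V617F among GLUT1/3 WT clones, 17.1% among dKO clones and 10.6% for the interaction. Other transporters of the plasma membrane were mostly silent. Of 35 further genes listed, only 7 passed the expression filter, with Slc7a6, a light chain of CD98, the most abundant at 23.8 to 30.4 FPKM, and the alternative light chain Slc7a8 stayed at or below 0.0134 FPKM. Of these 7, Slc7a6 was called higher in dKO of Jak2WT (0.32, adjusted p = 0.0353) and Slc7a7 was called lower in dKO of Jak2V617F (-0.91, adjusted p = 0.00622). Slc6a20a was the 1 gene called in Jak2V617F among GLUT1/3 WT clones, but it passed the filter only through those clones, at 2.41 and 2.08 FPKM, with 0.0795 to 1.45 in the other 6 libraries, so its call is no support for a difference. None was called among dKO clones or in the interaction by limma, where 4 and 3 of the 7 had an unadjusted p under 0.05. Slc7a6 missed the threshold (adjusted p = 0.0562) when libraries were scaled to the same summed FPKM, with clone numbers as blocks (0.0536), and without any 1 of the 4 Jak2WT libraries (0.141 to 0.177).

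Of 8 lysosomal carriers tested, Slc36a1 was called higher in dKO of Jak2V617F (0.57, adjusted p = 0.00452) and no other was called in any comparison by limma, with 0, 4, 3, 2 and 3 of the 8 at an unadjusted p under 0.05 in the order of comparisons above. Of 8 mitochondrial carriers tested, 2 were higher and 1 lower in dKO of Jak2WT, 1 higher and 1 lower in dKO of Jak2V617F, 1 higher and 3 lower in Jak2V617F among GLUT1/3 WT clones, 1 and 1 among dKO clones, and 0 higher and 1 lower in the interaction. Set against all genes tested, 3 of 8 called in dKO of Jak2WT stands beside 13.7%, and 2 of 8 in dKO of Jak2V617F beside 29.9%. The glutamate carrier Slc25a22 was higher in dKO of both backgrounds (0.72, adjusted p = 0.00722 in Jak2WT, and 0.64, adjusted p = 0.00324 in Jak2V617F), and the aspartate-glutamate carrier Slc25a12 was lower in both (-0.71, adjusted p = 0.00679, and -0.47, adjusted p = 0.00878). The glycine carrier Slc25a38 was higher in dKO of Jak2WT (0.65, adjusted p = 0.00531) and had a negative interaction (-0.61, adjusted p = 0.0184). The Jak2WT calls of Slc25a22 (adjusted p = 0.0626 and 0.0509), Slc25a12 (0.0578 and 0.0564) and Slc25a38 (0.0529 and 0.0509) were lost without Jak2WT GLUT1/3 WT clone 1 or clone 3, as were those of Slc25a22 without Jak2WT GLUT1/3 dKO clone 3 (0.0548) and of Slc25a12 without clone 1 (0.0529). In Jak2V617F, Slc25a12 lost its call in a fit of only the 2 groups (0.0596). Among dKO clones the genes called were Slc25a12 (0.39, adjusted p = 0.0261) and Slc25a22 (-0.39, adjusted p = 0.0325), and both lost the call without the filter (0.0553 and 0.0843), in a fit of only the 2 groups (0.0623 and 0.085), without any 1 of the 4 dKO libraries (0.0606 to 0.169) and without either Jak2WT GLUT1/3 WT clone (0.0568 to 0.0626). Among GLUT1/3 WT clones Slc25a22 and Slc25a15 lost the call without any 1 of the 4 libraries compared, and also without the filter (0.109 and 0.105). Slc25a22 lost it too with clone numbers as blocks (0.0563), in a fit of only the 2 groups (0.085) and without either Jak2WT GLUT1/3 dKO clone. Slc25a13 lost its call without Jak2WT GLUT1/3 WT clone 3 or Jak2V617F GLUT1/3 WT clone 3. The interaction of Slc25a38 lost its call without any 1 of the 4 Jak2WT libraries (0.0525 to 0.0867) and without Jak2V617F GLUT1/3 WT clone 1 (0.0562).

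Among 16 tested genes of the ATF4 response, which includes enzymes of serine and asparagine synthesis and stress factors, 12 were lower and 0 higher in dKO of Jak2V617F, with a median of -0.85. The largest changes there were those of Nupr1 (-1.82, adjusted p = 0.000463), Ddit4 (-1.60, adjusted p = 0.000383) and Asns, asparagine synthetase (-1.33, adjusted p = 0.00055). Among GLUT1/3 WT clones 11 were higher and 0 lower in Jak2V617F, with a median of 0.65, led by Atf5 (1.36, adjusted p = 0.00326), Cebpb (1.20, adjusted p = 0.00357) and Ddit4 (0.92, adjusted p = 0.002). In dKO of Jak2WT, in contrast, 2 were higher, Atf5 (1.27, adjusted p = 0.0108) and Atf4 itself (0.30, adjusted p = 0.0461), and 1 was lower, Ddit4 (-1.16, adjusted p = 0.0037), with a median of -0.10. The Atf4 call was lost without any 1 of the 4 Jak2WT libraries (adjusted p = 0.155 to 0.243) or of the 2 Jak2V617F GLUT1/3 WT libraries (0.0556 each), without the filter (0.077), with clone numbers as blocks (0.0682) and with libraries scaled to the same summed FPKM (0.116). The Atf5 call was lost without Jak2WT GLUT1/3 WT clone 1 (0.0769), clone 3 (0.0669) or Jak2WT GLUT1/3 dKO clone 1 (0.0705). Atf4 measured 106 and 111 FPKM in Jak2WT GLUT1/3 WT clones, 134 and 133 in Jak2WT GLUT1/3 dKO, 177 and 182 in Jak2V617F GLUT1/3 WT and 107 and 116 in Jak2V617F GLUT1/3 dKO. As for Slc7a1, Slc38a2, Slc3a2 and Slc7a5, its Jak2V617F GLUT1/3 WT clones were highest and its Jak2WT GLUT1/3 dKO clones came next. Among dKO clones 2 were higher and 5 lower in Jak2V617F, led downward by Nupr1 (-2.12, adjusted p = 0.000366). Of these, Cebpb, Ddit4 and Atf5 lost the call without the filter (adjusted p = 0.0795, 0.0775 and 0.122) and in a fit of only the 2 groups (0.0791, 0.0707 and 0.1). In the 8 fits that each left out a library, Cebpb lost the call in 3 (0.0562 to 0.119), Ddit4 in 5 (0.0573 to 0.148), Atf5 in 7 (0.0514 to 0.206) and Mthfd2 in 3 (0.0588 to 0.0795). In the interaction 7 were lower and 0 higher, led by Atf5 (-2.13, adjusted p = 0.0116), Nupr1 (-1.69, adjusted p = 0.00959) and Asns (-1.26, adjusted p = 0.0103). For Atf5, Nupr1 and Asns the interaction lost its call without Jak2WT GLUT1/3 WT clone 1 (adjusted p = 0.0539, 0.0502 and 0.0539), clone 3 (0.06, 0.0597 and 0.06) or Jak2WT GLUT1/3 dKO clone 1 (0.0503, 0.0503 and 0.0528).

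**Figure D5:**
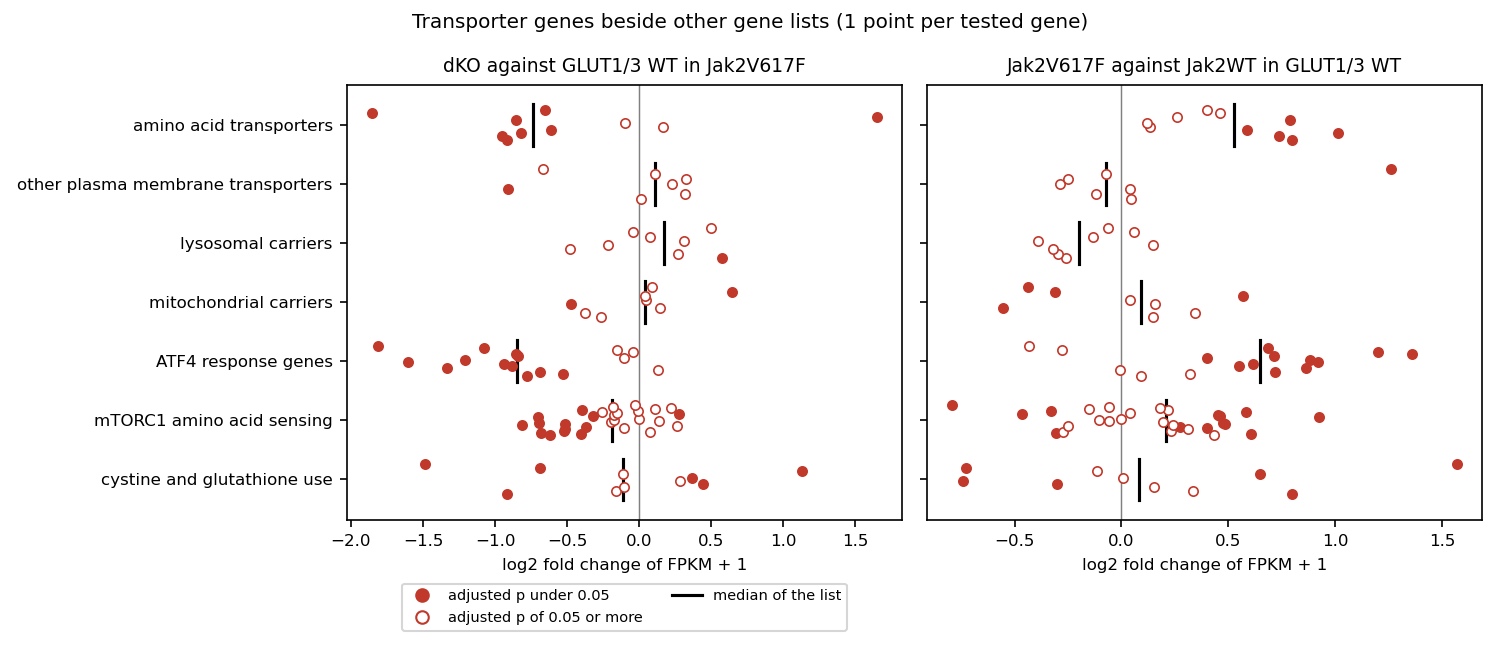
Log2 fold change of FPKM + 1 (x axis) for every tested gene of the transporter set and of 6 other lists, in dKO against GLUT1/3 WT in Jak2V617F (left) and in Jak2V617F against Jak2WT among GLUT1/3 WT clones (right), with 1 point per gene, filled where the adjusted p was under 0.05, and a line at the median of each list. The medians of the transporter genes (-0.74 and 0.53) and of the ATF4 response genes (-0.85 and 0.65) lie on the same side of 0 in each panel, and both panels use the Jak2V617F GLUT1/3 WT libraries.

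Genes of amino acid sensing by mTORC1, 28 of which were tested and which share Sesn2 with the ATF4 list, were called lower in 12 cases and higher in 1 in dKO of Jak2V617F, beside 16.2% and 13.7% of all genes tested, with a median of -0.19. There Bmt2, also called SAMTOR, a sensor of S-adenosylmethionine, was at -0.81 (adjusted p = 0.00256), and Flcn, folliculin, at -0.70 (adjusted p = 0.00923) and its partner Fnip1 at -0.69 (adjusted p = 0.00474). The gene called higher was Wdr24, a subunit of GATOR2 (0.28, adjusted p = 0.0417), which lost its call in 12 of 16 alternatives, among them those without any 1 of the 8 libraries (adjusted p = 0.0612 to 0.124). Flcn lost its call in a fit of only the 2 groups (0.0543). Among GLUT1/3 WT clones 9 were higher and 4 lower in Jak2V617F, with Flcn highest at 0.93 (adjusted p = 0.00329) and Castor2, of the arginine sensor family, lowest at -0.79 (adjusted p = 0.0273). Castor2 lost its call without any 1 of the 4 GLUT1/3 WT libraries and without the filter (0.103). Wdr24, Depdc5 and Nprl3 lost theirs without Jak2WT GLUT1/3 WT clone 3. Depdc5 and Nprl3 did so too without Jak2WT GLUT1/3 WT clone 1 or Jak2V617F GLUT1/3 WT clone 3, and Depdc5 without the filter (0.0554). The counts were 1 higher, Mios, and 3 lower, Bmt2, Wdr24 and Depdc5, in dKO of Jak2WT, which is near the share over all genes, and none of these 4 calls held without any 1 of the 4 Jak2WT libraries (adjusted p = 0.0528 to 0.192). The counts were 1 and 1 among dKO clones, where Lamtor4 was at -0.97 (adjusted p = 0.00126) and Nprl3, the gene called higher, lost its call without the filter (0.0701), in a fit of only the 2 groups (0.0802) and without Jak2WT GLUT1/3 dKO clone 1 (0.124), clone 3 (0.0812) or Jak2V617F GLUT1/3 dKO clone 1 (0.0594). They were 1 and 5 in the interaction, where Wdr24, Flcn, Fnip1 and Mios lost the call without Jak2WT GLUT1/3 WT clone 1, clone 3 or Jak2WT GLUT1/3 dKO clone 1 (0.054 to 0.125). Flcn and Fnip1 lost it too without Jak2WT GLUT1/3 dKO clone 3 (0.069 and 0.0886), Jak2V617F GLUT1/3 WT clone 1 (0.0689 and 0.0658) or clone 3 (0.0671 and 0.0793), without the filter (0.0875 and 0.0933) and with libraries scaled to the same summed FPKM (0.0531 and 0.1), and Fnip1 also without Jak2V617F GLUT1/3 dKO clone 1 (0.0543).

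Of 10 tested genes for the use of cystine, a list that includes Slc3a2, 3 were higher and 3 lower in dKO of Jak2V617F. Gss, glutathione synthetase (1.13, adjusted p = 0.00536), Txnrd1 (0.44, adjusted p = 0.0101) and Gclc, the catalytic subunit of glutamate-cysteine ligase (0.36, adjusted p = 0.0129), rose, whereas Ggt1 (-0.69, adjusted p = 0.00886) and Slc3a2 fell. Txnrd1 (adjusted p = 0.059) and Gclc (0.0753) lost their calls in a fit of only the 2 groups, and Gclc also without Jak2V617F GLUT1/3 WT clone 3 (0.0548). The third called lower was Cth, which makes cysteine from cystathionine. It reached 1 FPKM only in the Jak2V617F GLUT1/3 WT clones, at 1.52 and 2.56, with at most 0.114 in the other 6 libraries, and so passed the filter only through them, and its calls are no support for a difference. With Cth counted, 3 genes were higher and 3 lower in Jak2V617F among GLUT1/3 WT clones, and 0 were higher and 3 lower in the interaction. In the first of these, Txnrd1 lost its call in 8 of 16 alternatives and Ggt1 without Jak2WT GLUT1/3 WT clone 3. In the interaction Ggt1 lost its call in 7 of 8 fits that left out a library. It did so too without the filter (adjusted p = 0.103) and with clone numbers as blocks (0.0507). The list had 1 gene higher and 0 lower in dKO of Jak2WT, which was Gclc and lost its call without any 1 of the 4 Jak2WT libraries (adjusted p = 0.108 to 0.139). Among dKO clones 3 were higher, Gss, Gpx4 and Nfe2l2, and 1 lower, Ggt1. The 3 higher calls were lost without the filter (0.114, 0.12 and 0.0833), in a fit of only the 2 groups (0.091, 0.083 and 0.114) and in 7, 6 and 7 of the 8 fits that left out a library (0.0516 to 0.223).

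Likeness of pattern was measured over the 8 libraries as the root mean square difference between 2 genes of log2(FPKM + 1), each centred on its mean. Slc7a5 and Slc3a2 differed by 0.0878, less than either differed from any gene outside the 10, and each had a standard deviation of about 0.39 and 0.38 across libraries. Outside the 10, the genes nearest to Slc7a5 were Gm14681 (0.0979), Ggh (0.102) and Hsbp1 (0.106), and those nearest to Slc3a2 were Eif3a (0.105), Tars (0.107) and Slc25a30 (0.109). Slc7a1 lay nearest to Asnsd1 (0.0367), Ghitm (0.0735) and Atf4 (0.0746), and Slc38a2 to Epsti1 (0.128), Gtpbp4 (0.135) and Atf4 (0.144). Atf4 was the single gene named for more than 1 transporter. For Slc7a11 the nearest were Adm2 (0.206), Gpr174 (0.221) and Ptprc (0.221), and for Slc43a1 they were Xaf1 (0.166), Lgals3bp (0.174) and Asb11 (0.176), both at larger distances than for the other genes. Slc38a1, whose standard deviation was 0.12, was nearest to Zfp141 (0.0366) and Alg10b (0.0375), and Slc1a5 to Oma1 (0.0471), Wdr74 (0.0516) and Aldh16a1 (0.057). Slc1a4 was nearest to Prkra (0.0942), Cdk17 (0.0984) and Gm43672 (0.102), and Slc6a9 to Phf10 (0.0775), 3110083C13Rik (0.0827) and Ythdf3 (0.0861). The points of each pair share libraries and depth, so these distances are a description.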

How the data were processed

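FPKM per gene is the deposited unit, computed for the authors by their sequencing provider from paired reads of poly(A) RNA. Per the submitters' processing notes and the methods, reads were cleaned with fastp 1.0.1, aligned to mm39 (GRCm39) with HISAT2 2.2.1 and counted per gene with featureCounts 2.0.6. The annotation version, the strand setting and the total behind FPKM are not given in the sources used here. FPKM times gene length was a whole multiple of 1 step per library, within 0.01 of the step, for 100% of values, so reads were recovered (16846011 to 48884329 per library). The clones within each group had read counts that differed beyond sampling noise. All 8 library columns were used, and 0 per-sample columns were left out.

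The 11818 genes reaching 1 FPKM in 2 or more libraries were tested on log2(FPKM + 1) with limma 3.58.1 (R 4.3.3), with 1 mean per group in 1 fit, a mean-variance trend, 4 residual and 3.34 prior degrees of freedom, and Benjamini-Hochberg adjustment over all genes tested at a threshold of 0.05. The methods name no test for FPKM. An exact permutation test of 2 against 2 cannot go below p = 0.33 (two-sided), so it was not used. P-values measure the spread between clones of 1 line, with no repeat of the Jak2 transduction described.

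The transporter genes, lists and motifs were chosen with earlier results of these data known. Named genes are the 10 transporters, up to 3 genes per list, direction and comparison with the largest change past the threshold, and for each transporter the 3 genes of nearest pattern; Slc2a1, Slc2a3 and Jak2 check the labels. A few items that the rule or the labels cover are not reported here. From the lists, Ddit3 was left out because its symbol has 2 rows, and Lars1 and Ahsp matched no row. RefSeq promoter windows cover 7 of 10 transporters in an earlier build, so windows were also cut from GRCm39 at the canonical starts of GENCODE, for 11777 of 11818 genes. Alternatives were no filter, a pseudocount of 0.1, a minimum mean FPKM of 1, libraries scaled to the same summed FPKM or by median ratio, voom on recovered reads, only the 2 groups compared, the clone number as a block, and leaving out each library. Python 3.11.15 and matplotlib 3.10.9 drew the figures.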

Additional observations from a re-analysis of the deposited data

Results flagged for a closer look

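For 5 transporter genes the dKO difference itself differed between the Jak2 backgrounds by the limma test of the interaction, on the log2(FPKM + 1) scale. The interaction was -1.70 for Slc7a11 (dKO difference of -0.15 in Jak2WT and -1.85 in Jak2V617F), -1.42 for Slc38a2 (0.60 and -0.82), -1.13 for Slc7a5 (0.17 and -0.95), -1.08 for Slc3a2 (0.16 and -0.92) and -0.97 for Slc7a1 (0.36 and -0.61). For Slc38a2, Slc7a1, Slc7a5 and Slc3a2 both clones of each dKO group lay above the GLUT1/3 WT clones in Jak2WT and below them in Jak2V617F. In Jak2WT the dKO differences of Slc7a5 and Slc3a2 missed the threshold. Of all genes tested, 10.6% were called for this interaction. None of the 5 calls held under every alternative, and without Jak2WT GLUT1/3 WT clone 3 none of the 5 passed the threshold (adjusted p = 0.0522 to 0.0818), in a fit that called 5 of all genes tested. No group has more than 2 libraries, so no library could be tested as standing apart from its group.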

How the results depend on the processing

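Of 27 calls of transporter genes in the 5 comparisons, 14 held under every alternative. Jak2V617F against Jak2WT among dKO clones went from 5 calls to 3 without the filter, 3 with libraries scaled by median ratio and 2 in a fit of only the 2 groups compared. Leaving out 1 library at a time gave 1 to 4 calls for dKO in Jak2WT, 7 to 8 for dKO in Jak2V617F, 5 to 7 for Jak2V617F among GLUT1/3 WT clones, 1 to 4 among dKO clones and 0 to 6 for the interaction. With libraries scaled to the same summed FPKM, Slc38a1 (-0.026) and Slc1a5 (-0.014) changed sign in Jak2V617F among GLUT1/3 WT clones, the summed level of the 10 genes went from 295 to 311.8 FPKM in Jak2WT GLUT1/3 WT and from 361.7 to 357 in Jak2WT GLUT1/3 dKO (also 357 with the median ratio), and the share of calls over all genes that were higher went from 55.7% to 33.9% and from 45.7% to 60.2% for dKO in Jak2WT and Jak2V617F, from 50.7% to 29.4% for Jak2V617F among GLUT1/3 WT clones and from 44.4% to 75% for the interaction. Slc1a4 among dKO clones ranged from -0.035 to 0.3 over the fits that left out a library, with the change of sign without Jak2V617F GLUT1/3 dKO clone 3. The cause was not tested. Calls over all genes went from 1617 to 714 and from 1256 to 346 without the filter for dKO in Jak2WT and the interaction, and from 3533 to 1617 and from 2019 to 1028 in fits of only the 2 groups for dKO in Jak2V617F and Jak2V617F among dKO clones. Leaving out a library gave 110 to 1974 calls for dKO in Jak2WT, 2131 to 2985 for dKO in Jak2V617F, 1583 to 3969 for Jak2V617F among GLUT1/3 WT clones, 620 to 1992 among dKO clones and 5 to 1256 for the interaction. Clone numbers mark no shared origin in the labels, and deviations of like-numbered clones correlated at -0.254 to 0.152 between groups. With the clone number as a replicate block, transporter calls were 4, 8, 5, 4 and 6 and calls over all genes were 1323, 3226, 3355, 1769 and 956, in the order dKO in Jak2WT, dKO in Jak2V617F, Jak2V617F among GLUT1/3 WT clones, among dKO clones and the interaction. Of 790 values of single transporters under an alternative, 726 kept direction and side of the threshold, 52 lost the call, 9 gained it and 3 changed sign, and of 1106 values of the list genes that the naming rule covers 874 kept both and 232 lost the call.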
